A study of Mus musculus with 12 samples.

Results

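The genes of the matrix metalloproteases, the ADAMTS proteases, the ADAMTS-like proteins and the TIMP inhibitors were followed in PyMT mammary tumors. Members were all genes whose symbol begins with Mmp, Adamts or Adamtsl and a number, or is Timp1 to Timp4, without Mmp3, which gave 49 of the 21960 genes listed in each tumor. They comprise 21 Mmp, 19 Adamts, 5 Adamtsl and 4 Timp genes. Total RNA of 12 whole tumors was sequenced, 3 in each of 4 groups, and the sources used here do not state that each came from another mouse. These are named IgG1 and DOX/IgG1, for mice given the control antibody, and anti-PD-1 and DOX/anti-PD-1, for mice given the blocking antibody. All mice were C57BL/6 females carrying the polyoma middle T oncogene, which the MMTV promoter drives in the mammary epithelium. The IgG1 and anti-PD-1 groups were treated from a tumor diameter of 0.6 cm with 20 mg/kg and then 10 mg/kg of control IgG1 or of the PD-1 blocking antibody 4H2. The DOX/IgG1 and DOX/anti-PD-1 groups were treated from a diameter of 1 cm with weekly doxorubicin (DOX, 5 mg/kg) and the same antibodies at 10 mg/kg. Antibodies were given weekly with doxorubicin and at a shorter interval without it. The sample labels state 5 weeks for all 4 groups. A comparison of a doxorubicin group with a group without it therefore also holds the size at the start, the first antibody dose and the schedule, and these cannot be told apart.

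Matrix metalloproteases are zinc enzymes that cut collagens, elastin and other matrix proteins, either after secretion or, for the membrane-type enzymes, at the cell surface. ADAMTS proteases are secreted, bind matrix and cut proteoglycans, procollagens or fibrillin-associated proteins, while the ADAMTS-like proteins share their binding domains but lack the catalytic part. TIMPs block the active site of matrix metalloproteases, and in mammary tumors much of the system is made by stromal and immune cells. Levels are given in TPM, a transcript abundance scaled by transcript length, and the depth behind them is unknown. In bulk tumors, fewer cells of a type and less RNA per cell cannot be told apart.

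The tumor of DOX/IgG1 replicate 1 stood apart from the other 2 of its group. Its mean correlation with them was 0.862, against 0.888 to 0.940 for each of the other 11 tumors with its own group, and it had the fewest genes above 0, 13856. The neutrophil marker list summed to 7191 TPM there and to 655 to 1766 TPM elsewhere, but nearly all of it was Ltf, the lactoferrin gene that mammary epithelium also expresses, at 7185 TPM. Of the other 7 genes of that list, Ly6g and Camp were at 0 in all 12 tumors. S100a9, Cxcr2, Csf3r and Ngp were at 0 in DOX/IgG1 replicate 1. S100a8, at 0 in replicates 2 and 3 of that group and at 9.33 TPM at most elsewhere, was at 5.27 TPM in DOX/IgG1 replicate 1. The heading of its value column also carries the word test, which the other 11 lack, and the sources used here do not say why. The headings of the 3 DOX/anti-PD-1 tumors end in another suffix than those of the other 9, again without an explanation, and since it marks a whole group it cannot be told apart from that treatment. For the comparisons that include DOX/IgG1 replicate 1, some members are also given without it, chosen by their p-values, while the other members and the lists of markers and related genes are given with all tumors only.

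Of the 49 members, 39 reached 1 TPM in at least 3 of 12 tumors. The 10 that did not were Mmp1b, Mmp7, Mmp8, Mmp10, Mmp20, Mmp27, Adamts13, Adamts16, Adamts19 and Adamts20. The summed level of all members was 829 to 1021 TPM under IgG1, 686 to 715 TPM under anti-PD-1, 1420 to 1695 TPM under DOX/IgG1 and 803 to 1327 TPM under DOX/anti-PD-1. A few genes held most of it. Timp3, Mmp14, Mmp2 and Timp2 together made up 59.3 to 75.3% of the sum, and Timp3 by itself made up 21.3 to 48.1%.

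The metalloproteases below the minimum lay together in the genome. A group of 8 Mmp members lies within 427 kb on chromosome 9 of GRCm38 (mm10), at chr9:7272514-7699585 by GENCODE vM21, and only Mmp12 and Mmp13 of these 8 reached 1 TPM in at least 3 tumors. All 13 Mmp members outside it did. RefSeq promoters (GRCm38.p6) were matched for 34 of the 49 members, and the 250 bases before each start were searched on both strands for TGAGTCA (the AP-1 site), for GGGCGG (the GC box) and for TATAAA (the TATA box). The AP-1 letters were found in 5 of the 8 chromosome 9 genes and in 0 of the other 26 matched members, against 5.2% of 27025 genes with a promoter. The GC box showed the opposite split, with 0 of 8 against 20 of 26 members and 35.4% of all genes, and the TATA letters were found in 5 of 8, in 3 of 26 and in 14.3% of all genes. A match describes these letters and not a bound site. The windows of the 2 expressed genes of this group, and of Timp3 and Mmp14, the inhibitor and the protease with the highest means, are shown on their plus strand, with matches in capitals. Mmp12 has 2 RefSeq starts, and both windows lie at least in part within its GENCODE span. The RefSeq start lies 40 bases inside that span for Timp3 and 14 bases before it for Mmp14.
Mmp13, chr9:7272264-7272513: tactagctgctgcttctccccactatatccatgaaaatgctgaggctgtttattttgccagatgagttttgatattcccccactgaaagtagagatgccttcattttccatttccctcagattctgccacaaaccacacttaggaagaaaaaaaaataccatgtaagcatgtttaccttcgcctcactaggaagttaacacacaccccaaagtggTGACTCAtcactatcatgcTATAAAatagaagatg
Mmp12 first start, chr9:7344147-7344396: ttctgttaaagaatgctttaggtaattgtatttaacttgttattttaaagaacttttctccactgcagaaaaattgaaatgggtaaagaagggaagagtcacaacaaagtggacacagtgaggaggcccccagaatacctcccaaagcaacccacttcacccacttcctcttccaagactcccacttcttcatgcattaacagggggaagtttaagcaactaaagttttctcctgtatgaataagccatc
Mmp12 second start, chr9:7347124-7347373: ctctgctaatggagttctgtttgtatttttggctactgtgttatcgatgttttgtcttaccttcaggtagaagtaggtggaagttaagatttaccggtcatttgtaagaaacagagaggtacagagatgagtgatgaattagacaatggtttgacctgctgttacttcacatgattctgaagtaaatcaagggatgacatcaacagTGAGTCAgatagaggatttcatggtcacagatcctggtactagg
Mmp14, chr14:54431348-54431597: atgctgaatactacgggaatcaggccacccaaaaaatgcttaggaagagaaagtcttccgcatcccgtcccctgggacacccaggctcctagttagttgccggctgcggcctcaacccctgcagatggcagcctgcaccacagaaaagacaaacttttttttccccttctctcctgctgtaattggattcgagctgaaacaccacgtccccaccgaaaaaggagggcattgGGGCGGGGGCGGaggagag
Timp3, chr10:86300162-86300411: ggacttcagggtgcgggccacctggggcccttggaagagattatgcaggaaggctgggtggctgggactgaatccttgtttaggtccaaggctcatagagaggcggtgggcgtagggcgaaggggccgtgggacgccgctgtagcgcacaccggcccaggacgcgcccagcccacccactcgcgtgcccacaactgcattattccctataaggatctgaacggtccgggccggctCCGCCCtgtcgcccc
In Mmp13 the AP-1 letters, in the reverse orientation, begin 35 bases and the TATA letters 16 bases before the start. In Mmp12 the AP-1 letters stand 44 bases before the second start, and the first window holds none of the 3 motifs. Mmp14 has 2 adjoining GC boxes, from 19 bases before its start, and Timp3 has 1, from 15 bases before, in the reverse orientation.

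Timp3, the inhibitor that stays bound to the matrix and also blocks ADAM17 and several ADAMTS enzymes, had the highest mean of all members over the 12 tumors. It stood at 376, 176 and 344 TPM under IgG1 and at 161, 251 and 187 TPM under anti-PD-1. It stood at 683, 787 and 768 TPM under DOX/IgG1 and at 235, 325 and 333 TPM under DOX/anti-PD-1. All 3 DOX/IgG1 tumors lay above each of the other 9, and the other groups overlapped. The Timp3 gene (ENSMUSG00000020044) lies at chr10:86300372-86349506, inside Syn3 on the opposite strand. Syn3 was at 3.31 to 13.09 TPM, far below Timp3.

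Timp2, which inhibits Mmp14 and at the cell surface also helps it to activate pro-Mmp2, had a different order. Its level was 103, 84.4 and 51.5 TPM under IgG1, 87.6, 62.7 and 80.8 TPM under anti-PD-1 and 105, 78.8 and 83.0 TPM under DOX/IgG1. In DOX/anti-PD-1 tumors it was 39.0, 56.2 and 47.9 TPM, below every tumor of the anti-PD-1 and DOX/IgG1 groups, while IgG1 replicate 3 fell among these values. Timp2 overlaps Cep295nl on the same strand, which was at 2.35 to 24.20 TPM, so its level is uncertain to that extent. Timp1, a secreted inhibitor that acts poorly on membrane-type enzymes, was at 44.0, 7.67 and 15.9 TPM under IgG1 and 13.6, 6.71 and 10.1 TPM under anti-PD-1. It was at 25.8, 9.53 and 2.56 TPM under DOX/IgG1 and at 14.2, 20.3 and 23.6 TPM under DOX/anti-PD-1. The range of Timp1 from lowest to highest tumor within the IgG1 and DOX/IgG1 groups was wider than any difference between group means. All 3 DOX/anti-PD-1 tumors lay above all 3 anti-PD-1 tumors, the closest of them at 14.2 and 13.6 TPM. Timp4 had the lowest mean of the inhibitors, at 1.42, 2.15 and 4.97 TPM under IgG1, 0.29, 0.89 and 1.95 TPM under anti-PD-1, 2.41, 4.28 and 7.13 TPM under DOX/IgG1 and 1.66, 1.56 and 4.51 TPM under DOX/anti-PD-1. Timp4 lies inside Syn2 on the opposite strand, which was at 3.24 to 17.29 TPM. The library kit was a stranded one, but the strand setting at counting is not given in the sources used here, so whether reads of Syn2 were counted for Timp4 is uncertain. Timp1 lies inside Syn1 in the same way, but Syn1 did not exceed 2.31 TPM.

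**Figure D1:**
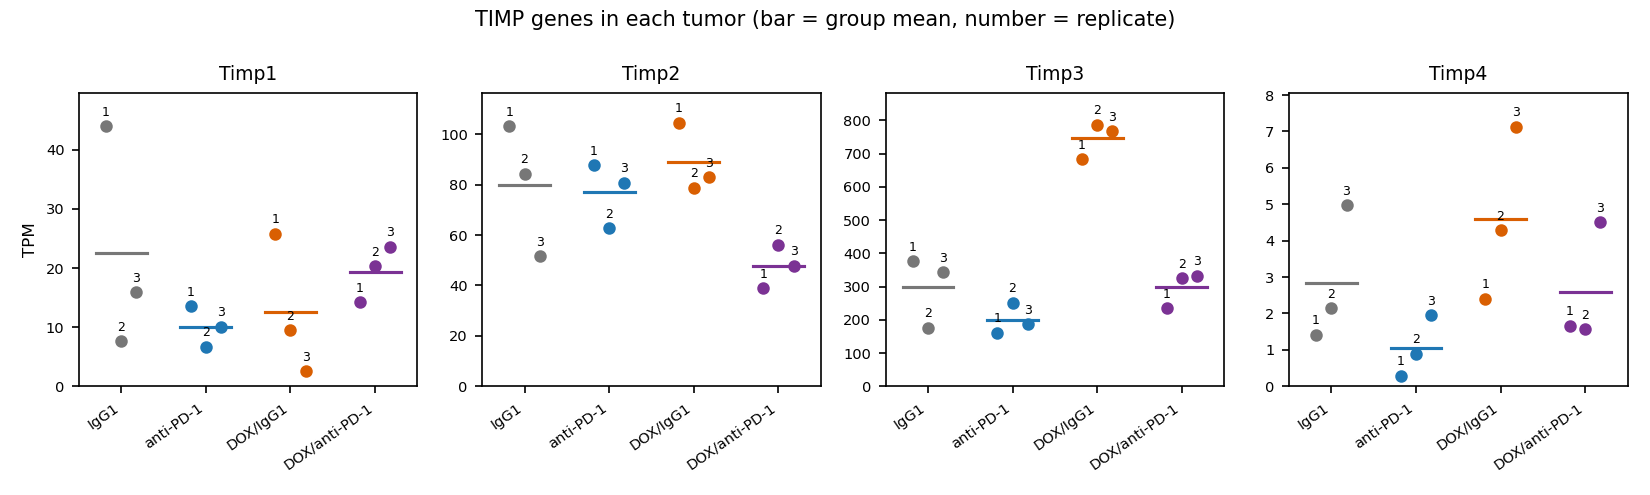
TPM of the 4 TIMP genes (vertical axes, linear, each with its own scale) in the 3 tumors of each treatment group (horizontal axis), with the group mean as a bar and the replicate number above each point. Timp3 in the 3 DOX/IgG1 tumors (683, 787 and 768 TPM) lies above all other tumors, and Timp2 is lowest on average in DOX/anti-PD-1 tumors.

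Among the proteases, Mmp14, the membrane-type enzyme that activates pro-Mmp2, had the highest mean. It stood at 164, 187 and 181 TPM under IgG1 and at 126, 63.9 and 80.0 TPM under anti-PD-1, with no overlap. It stood at 214, 158 and 235 TPM under DOX/IgG1 and at 128, 197 and 419 TPM under DOX/anti-PD-1, where DOX/anti-PD-1 replicate 3 was the highest of all 12. Mmp2, a gelatinase of stromal cells, was at 77.1, 78.0 and 72.9 TPM under IgG1, 62.8, 46.1 and 59.6 TPM under anti-PD-1, 67.6, 171 and 151 TPM under DOX/IgG1 and 75.0, 90.7 and 151 TPM under DOX/anti-PD-1. DOX/IgG1 replicate 1 was thus the one tumor of its group below the IgG1 values. Mmp15, another membrane-type enzyme, varied least among the named genes, with 40.0, 44.1 and 48.9 TPM under IgG1, 27.6, 37.6 and 31.1 TPM under anti-PD-1, 35.7, 47.2 and 35.4 TPM under DOX/IgG1 and 51.0, 42.8 and 25.1 TPM under DOX/anti-PD-1.

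Mmp12, the macrophage elastase, was at 12.2, 6.73 and 15.1 TPM under IgG1 and 10.9, 11.3 and 5.37 TPM under anti-PD-1. It was at 27.9, 18.8 and 27.6 TPM under DOX/IgG1 and at 10.5, 18.7 and 25.0 TPM under DOX/anti-PD-1. All DOX/IgG1 tumors lay above all tumors without doxorubicin, and DOX/anti-PD-1 replicate 1 fell among the latter. The macrophage marker list, in which C1qa was the most abundant gene, did not separate in this way, with sums of 266 to 344 TPM under IgG1, 228 to 311 TPM under anti-PD-1, 285 to 376 TPM under DOX/IgG1 and 268 to 393 TPM under DOX/anti-PD-1. Mmp9, the gelatinase of neutrophils and macrophages, was listed at 3.29, 0 and 0 TPM under IgG1, at 0 in all 3 anti-PD-1 tumors, at 8.42, 4.42 and 2.50 TPM under DOX/IgG1 and at 0, 1.46 and 4.19 TPM under DOX/anti-PD-1. It entered the tests only through doxorubicin tumors and IgG1 replicate 1, and it was too low to be tested for anti-PD-1 against IgG1 or for doxorubicin under anti-PD-1. Mmp8, the neutrophil collagenase, did not exceed 0.41 TPM.

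**Figure D2:**
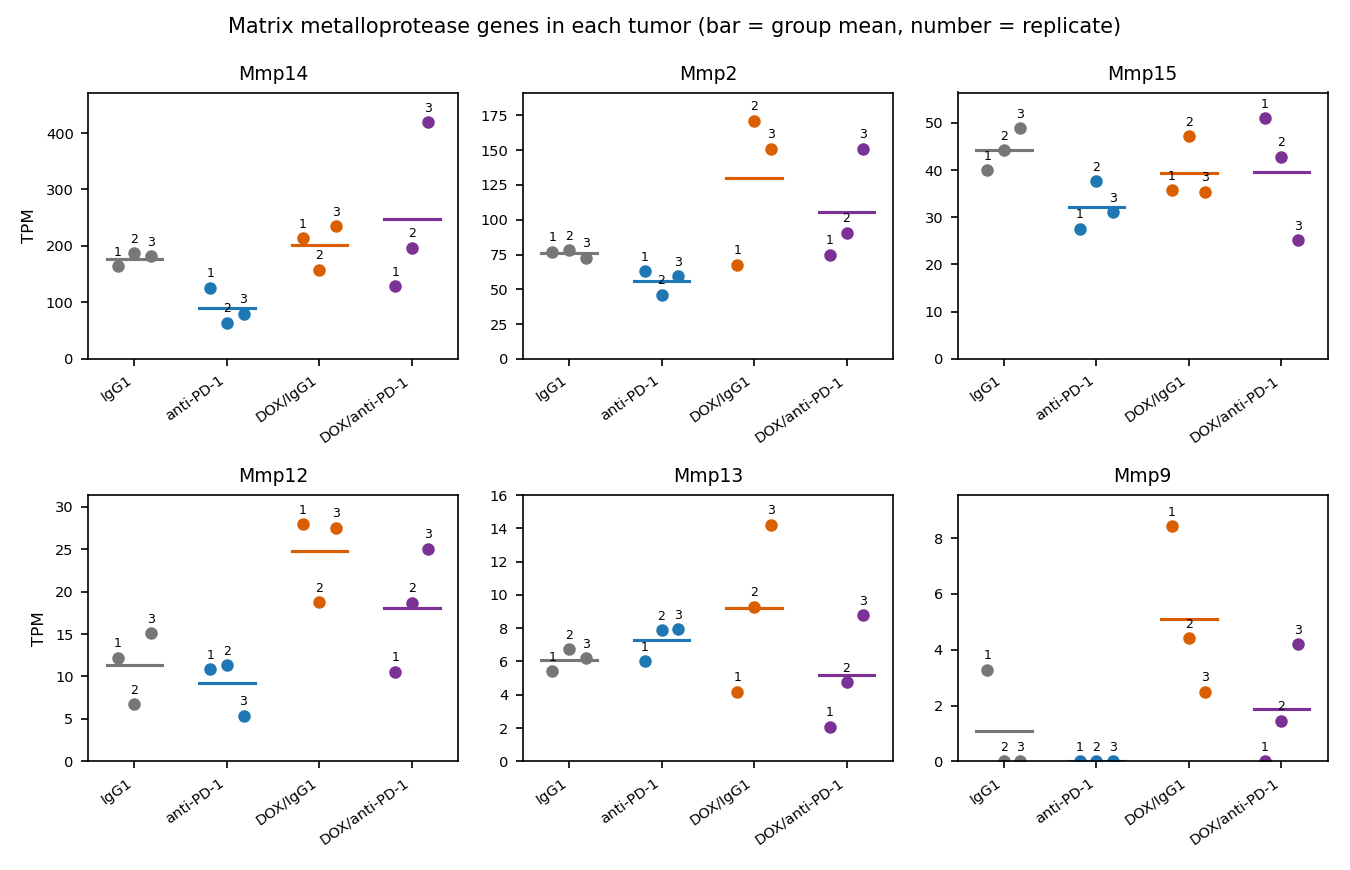
TPM of 6 Mmp genes (vertical axes, linear, each with its own scale) in the 3 tumors of each group (horizontal axis), with the group mean as a bar and the replicate number above each point. Mmp14 is lower in the 3 anti-PD-1 tumors than in the 3 IgG1 tumors, and Mmp12 is higher in the 3 DOX/IgG1 tumors than in every tumor without doxorubicin.

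The other Mmp members that reached the minimum did not exceed 14.83 TPM. Mmp13, the interstitial collagenase of rodents, ranged from 2.07 to 14.21 TPM, Mmp19 from 3.20 to 14.83 TPM and Mmp23 from 1.18 to 9.65 TPM. Mmp11, stromelysin 3, ranged from 0 to 7.68 TPM. Mmp17 and Mmp28 reached 3.39 and 2.88 TPM at most, Mmp16 and Mmp21 reached 2.29 and 2.14 TPM, and Mmp25 and Mmp24 reached 1.90 and 1.69 TPM. These 6 genes were close to the minimum and all but Mmp17 were listed at 0 in at least 1 tumor. On the opposite strand, Mmp24 overlaps BC029722 (7.12 to 17.78 TPM) and Mmp11 overlaps Chchd10 (3.49 to 15.08 TPM). In the same way Mmp19 overlaps Tmem198b (1.79 to 11.12 TPM) and Mmp28 overlaps 1700020L24Rik (0 to 3.14 TPM). The levels of these members are therefore uncertain.

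Adamts10, which binds fibrillin microfibrils, had the highest mean of the ADAMTS members over the 12 tumors, while Adamts3 had the higher mean in the IgG1 and anti-PD-1 groups. It stood at 20.0, 57.4 and 37.9 TPM under IgG1, 25.2, 40.8 and 47.3 TPM under anti-PD-1, 72.4, 69.3 and 53.5 TPM under DOX/IgG1 and 50.9, 68.5 and 94.5 TPM under DOX/anti-PD-1. Given the blocking antibody, all doxorubicin tumors lay above those without it, while with IgG1 the groups overlapped through IgG1 replicate 2. Adamts3, which trims procollagen and also activates VEGF-C, was at 34.0, 47.6 and 43.1 TPM under IgG1, 51.3, 49.3 and 39.9 TPM under anti-PD-1, 4.45, 24.7 and 45.7 TPM under DOX/IgG1 and 51.3, 78.5 and 20.0 TPM under DOX/anti-PD-1. The doxorubicin tumors covered a far wider range than the others. Adamts1, which cuts versican and aggrecan, was at 27.1, 13.2 and 22.4 TPM under IgG1, 18.2, 22.1 and 19.0 TPM under anti-PD-1, 42.2, 29.0 and 41.9 TPM under DOX/IgG1 and 30.2, 30.9 and 25.3 TPM under DOX/anti-PD-1. With either antibody, each doxorubicin tumor lay above each tumor without doxorubicin. Adamts7, which cuts cartilage oligomeric matrix protein, was at 4.05, 7.38 and 3.89 TPM under IgG1, 2.38, 2.86 and 2.05 TPM under anti-PD-1, 5.13, 7.44 and 5.43 TPM under DOX/IgG1 and 6.35, 6.45 and 6.40 TPM under DOX/anti-PD-1. Anti-PD-1 tumors were the lowest. Adamts7 overlaps Tbc1d2b on the opposite strand, which was at 6.25 to 16.77 TPM, so its level is uncertain.

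Adamtsl1, a matrix protein without protease activity, had the largest ratio of highest to lowest value among the ADAMTS and ADAMTS-like genes described by tumor. It was at 7.42, 6.46 and 24.0 TPM under IgG1, 11.6, 5.77 and 14.6 TPM under anti-PD-1 and 24.0, 13.3 and 26.5 TPM under DOX/anti-PD-1. In DOX/IgG1 tumors it was at 4.92, 90.3 and 74.8 TPM, so replicate 1 was the lowest of all 12 and the other 2 were the highest. Adamtsl2 was at 3.46, 6.13 and 8.18 TPM under IgG1, 6.47, 3.33 and 8.67 TPM under anti-PD-1, 1.23, 10.6 and 0.98 TPM under DOX/IgG1 and 1.32, 13.1 and 1.94 TPM under DOX/anti-PD-1, with 1 high tumor in each doxorubicin group. Adamtsl4, a fibrillin-binding protein of the lens zonule, was at 5.97, 4.51 and 7.87 TPM under IgG1, 2.07, 2.87 and 2.53 TPM under anti-PD-1, 2.88, 5.74 and 5.91 TPM under DOX/IgG1 and 4.74, 5.09 and 5.17 TPM under DOX/anti-PD-1. As for Adamts7, anti-PD-1 tumors lay below the IgG1 tumors without overlap.

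**Figure D3:**
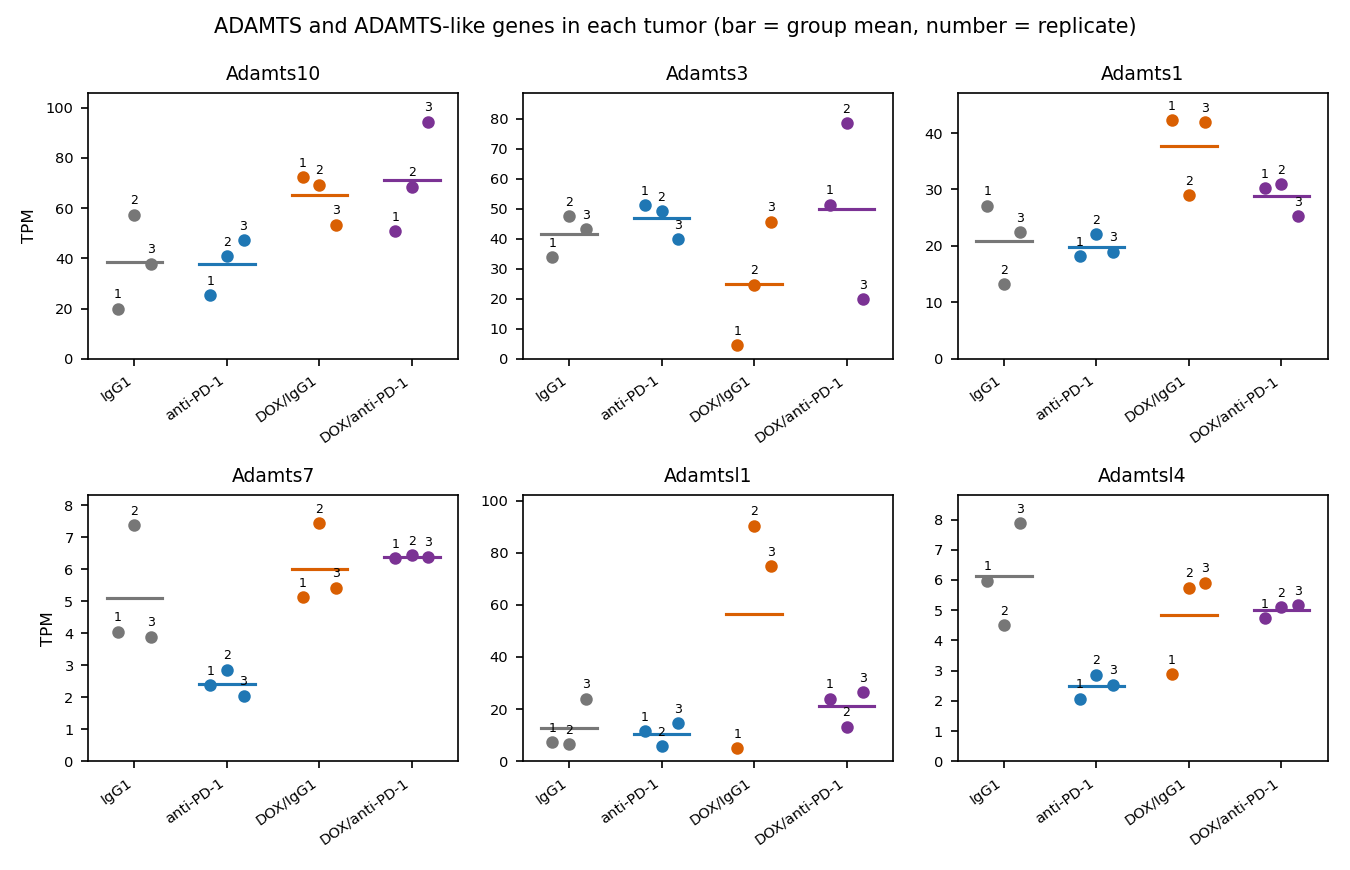
TPM of 4 Adamts and 2 Adamtsl genes (vertical axes, linear, each with its own scale) in the 3 tumors of each group (horizontal axis), with the group mean as a bar and the replicate number above each point. Adamtsl1 is at 4.92 TPM in DOX/IgG1 replicate 1 and at 90.3 and 74.8 TPM in the other 2 tumors of that group.

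The remaining members were summarised by their range over the 12 tumors. Adamts9 ranged from 9.23 to 30.99 TPM, Adamts2, a procollagen peptidase, from 7.22 to 21.51 TPM, and Adamts15 from 4.40 to 20.80 TPM. Adamts18 ranged from 1.57 to 13.13 TPM, Adamts12 from 5.25 to 12.74 TPM and Adamts8 from 3.56 to 11.48 TPM. Adamts17 ranged from 2.84 to 10.37 TPM, Adamts5, an aggrecanase, from 2.94 to 9.16 TPM, and Adamts6 from 1.37 to 6.44 TPM. Adamts4, the other main aggrecanase, ranged from 1.66 to 8.30 TPM. Adamts14 ranged from 0 to 1.63 TPM, Adamtsl3 from 1.22 to 15.86 TPM and Adamtsl5 from 0 to 3.94 TPM.

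Doxorubicin was compared with no doxorubicin first under IgG1, where the question was what chemotherapy alone left in the tumors. Timp3, Mmp12 and Mmp9 had the smallest p-values of the 34 members tested, and all 3 were higher with doxorubicin. Mmp9 met the minimum only because the 3 DOX/IgG1 tumors did, so the filter favored this direction. Timp3 averaged 746 ± 55.4 TPM (SD, n = 3) against 299 ± 107 TPM (SD, n = 3), a log2 fold change of TPM + 1 of 1.39 (SE 0.31) that was not called (limma adjusted p = 0.46, exact permutation p = 0.1), with all 3 tumors above all 3 of IgG1. Mmp12 had a log2 fold change of 1.10 (SE 0.37, limma adjusted p = 0.547, exact p = 0.1) and Mmp9 one of 1.79 (SE 0.70, limma adjusted p = 0.597, exact p = 0.2). The exact test cannot go below 0.1 with 3 tumors against 3. A gene was called if its log2 fold change exceeded 1 in either direction at a limma adjusted p below 0.1. By this rule 0 members were called, beside 5 of all 13874 genes tested (0.0360%). At an unadjusted p below 0.05 there were 5 members, all of them higher with doxorubicin, or 14.7% of those tested against 7.73% of all genes. The count was 3 after median-of-ratios scaling and 2 without IgG1 replicate 2 (shares of all genes in these fits are not given here). Counted only over genes at 1 TPM or more in 3 tumors of each group, it was 4 of 28 members (14.3%) beside 7.34% of all such genes, without Mmp9. The 2 groups did not overlap for 4 members, Timp3, Mmp12, Adamts1 and Adamts17, which is 11.8% against 14.0% of all genes. The median log2 fold change of tested members was 0.30, beside 0.12 for all genes tested. Scaling by the median of ratios moved the median of all genes to 0.02 and that of the members to 0.21.

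Leaving out DOX/IgG1 replicate 1 altered this comparison. All genes called went from 5 to 122, and 1 member, Adamtsl1, was then called with a log2 fold change of 2.84 (SE 0.51, limma adjusted p = 0.0717). With all 6 tumors it was 1.57 (SE 0.97, limma adjusted p = 0.751), and over all alternatives its adjusted p ranged from 0.0717 to 0.935. Members at an unadjusted p below 0.05 were still 5, but 3 of them were others (14.7% beside 13% of all genes without that tumor), as Adamtsl1, Mmp2 and Mmp19 took the place of Mmp9, Adamts1 and Adamts10. Timp3 was then at 1.45 (SE 0.34, limma adjusted p = 0.145, range over all alternatives 0.145 to 0.86) and Mmp12 at 1.01 (SE 0.41, limma adjusted p = 0.348, range 0.348 to 0.881). Mmp2 went from 0.66 (SE 0.34, limma adjusted p = 0.697) to 1.07 (SE 0.23, limma adjusted p = 0.113). Mmp19 went from 0.72 (SE 0.50, limma adjusted p = 0.769) to 1.13 (SE 0.45, limma adjusted p = 0.333), and Mmp9 from 1.79 to 1.42 (SE 0.74, limma adjusted p = 0.454, range 0.454 to 0.86). Adamts3 went from −1.17 to −0.28 and Timp1 from −0.90 to −1.61, so other members moved as well, though less than Adamtsl1. The pericyte and smooth muscle list, most abundantly Acta2, summed to 142 TPM in DOX/IgG1 replicate 1 against 543 and 756 TPM in replicates 2 and 3. The fibroblast list summed to 400 TPM against 622 and 460 TPM, but most of it was Postn, at 305 TPM against 336 and 287 TPM. Of its other genes, Pdgfra, Pdgfrb, Fap, Thy1 and Pi16 were lowest in replicate 1 of the group. Dpt and Clec3b in replicate 1 lay between replicates 2 and 3. The endothelial list summed to 124 TPM against 169 and 99.8 TPM. The part of these lists in the difference of Adamtsl1 was not tested.

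No luminal, fibroblast or endothelial marker was called between DOX/IgG1 and IgG1 by limma. Luminal epithelial genes were lower in 5 of 7, 2 of them at an unadjusted p below 0.05, Epcam at −0.87 (SE 0.23, limma adjusted p = 0.469) and Cldn7 at −0.75 (SE 0.25, limma adjusted p = 0.547). Fibroblast genes were higher in 6 of 8 with a median of 0.13, and 1, Postn, was lower at that level. Endothelial genes were lower in 4 of 6 with a median of −0.10, 1 of them at that level. Pericyte and smooth muscle genes were higher in 6 of 6 (median 0.29) and adipocyte genes in 5 of 6 (median 0.45), with 0 at that level and 0 called. Salivary gland markers were high in the DOX/IgG1 group. That list, most abundantly Amy1, summed to 60.1, 98.0 and 114 TPM under DOX/IgG1 and to 5.40 to 23.3 TPM in the other 9, and Bpifa2 was at 14.4, 21.3 and 53.7 TPM there and at 0 in all others. Of 4 salivary genes tested against IgG1, Bpifa2 and Smr3a were called, but both were at 0 in the IgG1 tumors and passed the minimum only through DOX/IgG1, so their direction was fixed by the filter. Amy1, which passed in both groups, had a log2 fold change of 1.88 (limma adjusted p = 0.46). This is the group in which Timp3 was highest, and the part of these tissues in the Timp3 level was not tested.

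Under anti-PD-1, doxorubicin was compared with no doxorubicin as the study's test of chemotherapy added to checkpoint blockade. Mmp14, Adamts7 and Mmp2 had the smallest p-values of 34 members tested, again all higher with doxorubicin. Mmp14 averaged 248 ± 152 TPM (SD, n = 3) against 90.0 ± 32.4 TPM (SD, n = 3), with a log2 fold change of 1.34 (SE 0.42, limma adjusted p = 0.495, exact p = 0.1). Adamts7 had one of 1.12 (SE 0.36, limma adjusted p = 0.504, exact p = 0.1) and Mmp2 one of 0.85 (SE 0.29, limma adjusted p = 0.504, exact p = 0.1). Over all alternatives these values ranged from 0.87 to 1.72 for Mmp14, from 1.02 to 1.37 for Adamts7 and from 0.56 to 1.06 for Mmp2. Each of these 3 was higher in all 3 tumors given doxorubicin than in all 3 without it. Timp2 went the other way, with a log2 fold change of −0.68 (SE 0.24, limma adjusted p = 0.506, exact p = 0.1). Timp1 was higher with doxorubicin, at 0.89 (SE 0.35, limma adjusted p = 0.533, exact p = 0.1), also without overlap. In this comparison 0 members and 0 of 13736 genes (0%) were called. At an unadjusted p below 0.05 there were 8 members, 7 higher and 1 lower, or 23.5% against 8.63% of all genes. Groups did not overlap for 10 members, 8 higher and 2 lower, or 29.4% against 14.9% of all genes. The members' median log2 fold change was 0.49 beside 0.11 for all genes, and 0.38 beside −0.01 after median-of-ratios scaling. The median was 0.21 with no filter on low values. The count of 8 fell to 4 without anti-PD-1 replicate 1 or without DOX/anti-PD-1 replicate 3 (shares of all genes in these fits are not given here).

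Markers of stromal and of some other cell types leaned the same way in this comparison. All 8 fibroblast genes had a positive log2 fold change, 2 of them at an unadjusted p below 0.05, with a median of 0.66. Of 6 pericyte and smooth muscle genes 5 were positive, 3 of them at that level, with a median of 0.67. All 6 adipocyte genes were positive, 5 of them at that level, with a median of 1.43. Summed adipocyte levels were 51.0, 44.1 and 81.2 TPM under anti-PD-1 and 509, 120 and 122 TPM under DOX/anti-PD-1. Basal epithelial genes were positive in 5 of 5 (median 0.39), macrophage genes in 7 of 8 (median 0.29) and endothelial genes in 5 of 6 (median 0.19). Luminal epithelial genes were positive in 3 of 7 (median −0.17). None of these genes was called by limma after adjustment, and their part in the differences of Mmp14, Mmp2 and Adamts7 was not tested.

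**Figure D4:**
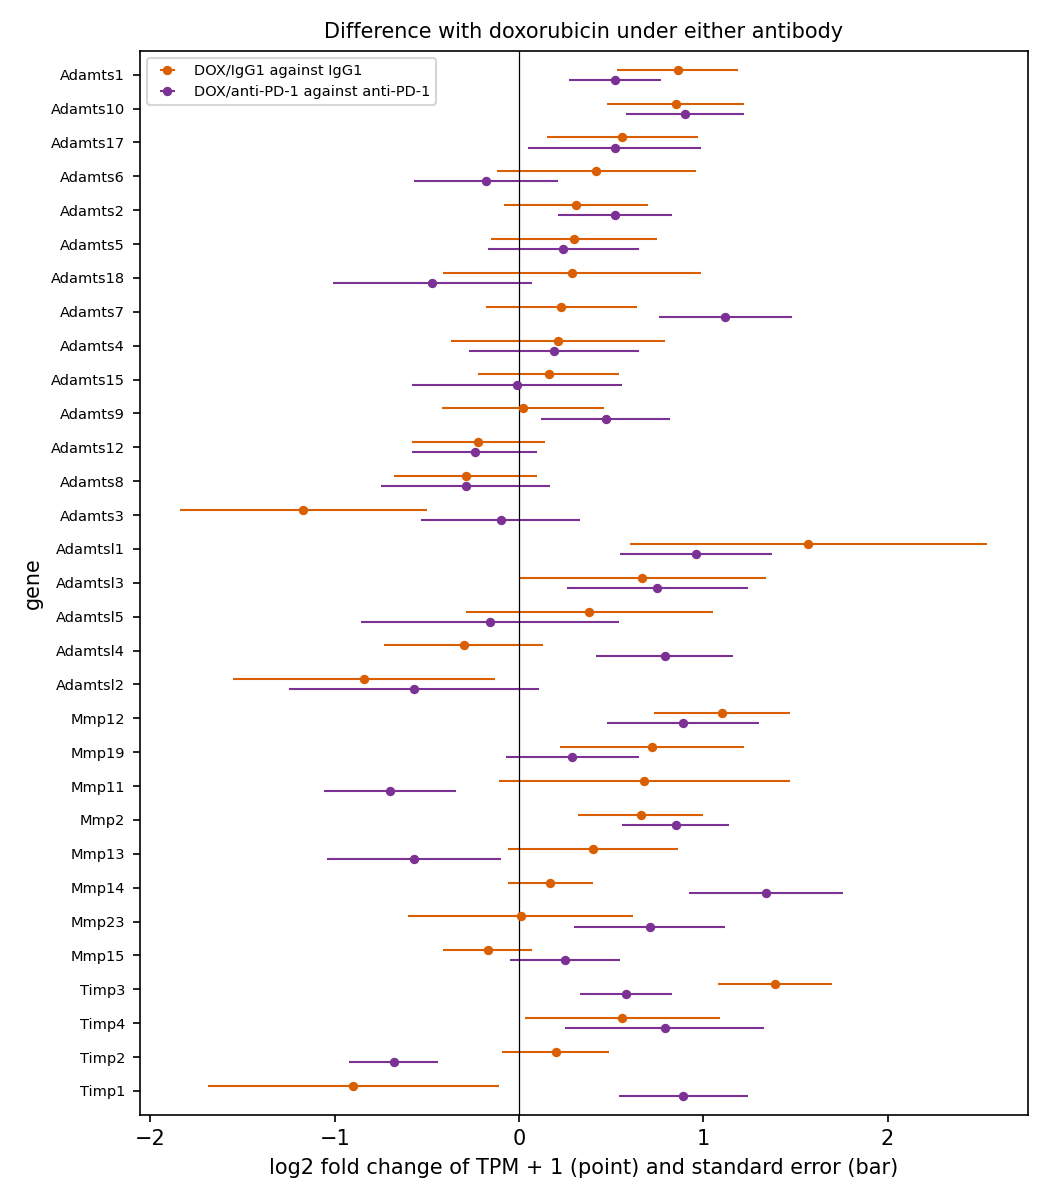
Log2 fold change of TPM + 1 (horizontal axis, point) with its standard error (bar) for the 31 members (vertical axis) tested under both antibodies, for DOX/IgG1 against IgG1 and for DOX/anti-PD-1 against anti-PD-1. Of these genes, 17 are positive and 4 negative in both comparisons. Timp3 is at 1.39 under IgG1 and 0.58 under anti-PD-1, and Mmp14 at 0.17 and 1.34.

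Averaged over both antibodies, the doxorubicin main effect had its smallest p-values for Timp3, Mmp12 and Adamts10 among 39 members tested in 12 tumors. Timp3 had a log2 fold change of 0.99 (SE 0.23, limma adjusted p = 0.175, exact p = 0.01), Mmp12 one of 1.00 (SE 0.28, limma adjusted p = 0.21, exact p = 0.015) and Adamts10 one of 0.88 (SE 0.25, limma adjusted p = 0.216, exact p = 0.01). Adamts1, with 0.69 (SE 0.20, limma adjusted p = 0.225), gave an exact p of 0.005, the smallest that this test allows. These exact values are not adjusted for the number of genes. By the calling rule 0 members passed, beside 3 of 14735 genes (0.0204%). At an unadjusted p below 0.05, 9 members were higher, 23.1% of those tested, beside 8.82% of all genes, and 0 were lower, beside 3.16% of all genes. The median log2 fold change of members was 0.25 beside 0.12 for all genes, and 0.17 beside 0.02 after median-of-ratios scaling. Over genes at 1 TPM or more in 3 tumors with and 3 without doxorubicin, the count in either direction was 8 of 32 members (25%) beside 11.7% of all such genes, again without Mmp9. Without DOX/IgG1 replicate 1, all genes called went from 3 to 212 and Adamtsl1 was the 1 member called, with a log2 fold change of 1.80 (SE 0.42, limma adjusted p = 0.0679). With all tumors it was 1.27 (SE 0.57, limma adjusted p = 0.394), and over all alternatives the adjusted p ranged from 0.0679 to 0.608. Timp3 and Mmp2 then had limma adjusted p-values of 0.0852 and 0.045, but log2 fold changes of 0.97 and 0.95, short of the limit of 1. Their adjusted p over all alternatives ranged from 0.0852 to 0.32 and from 0.045 to 0.398.

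The antibody comparison without chemotherapy asked what PD-1 blockade alone left in the tumors. Mmp14, Adamtsl4 and Adamts7 had the smallest p-values of 33 members tested, and all were lower with anti-PD-1. Mmp14 averaged 90.0 ± 32.4 TPM (SD, n = 3) against 178 ± 12.0 TPM (SD, n = 3), with a log2 fold change of −1.03 (SE 0.27, limma adjusted p = 0.936, exact p = 0.1). Adamtsl4 had one of −1.01 (SE 0.38, limma adjusted p = 0.996, exact p = 0.1) and Adamts7 one of −0.79 (SE 0.40, limma adjusted p = 0.996, exact p = 0.1). Here 0 members and 0 of 13692 genes (0%) were called. There were 2 members at an unadjusted p below 0.05, or 6.06% against 4.60% of all genes. There were 1 to 5 on leaving out single tumors (shares of all genes in those fits are not given here). Groups did not overlap for 5 members, all lower with anti-PD-1 (Mmp14, Mmp15, Mmp2, Adamts7 and Adamtsl4), or 15.2% against 9.88% of all genes. The median was −0.22 beside −0.03 for all genes, and −0.36 to −0.11 on leaving out single tumors. All 8 fibroblast genes were also negative, with a median of −0.44, 1 of them at an unadjusted p below 0.05. Luminal epithelial genes were negative in 6 of 7, 2 of them at that level (median −0.21), adipocyte genes in 5 of 6 (median −0.69), pericyte genes in 5 of 6 (median −0.31) and endothelial genes in 5 of 6 (median −0.22). Their part was not tested. The anti-PD-1 group also serves as the control of DOX/anti-PD-1. The low Mmp14, Mmp2, Mmp15, Adamts7 and Adamtsl4 values of its 3 tumors therefore enter both comparisons.

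On the doxorubicin background, Timp3, Timp2 and Mmp9 had the smallest p-values of 36 members tested, and all 3 were lower with anti-PD-1. Timp3 averaged 298 ± 54.0 TPM (SD, n = 3) against 746 ± 55.4 TPM (SD, n = 3), with a log2 fold change of −1.34 (SE 0.23, limma adjusted p = 0.706, exact p = 0.1). Timp2 averaged 47.7 ± 8.62 TPM (SD, n = 3) against 88.8 ± 13.9 TPM (SD, n = 3), with one of −0.89 (SE 0.24, limma adjusted p = 0.988, exact p = 0.1). Mmp9 had one of −1.27 (SE 0.70, limma adjusted p = 0.988, exact p = 0.2), ranging from −2.41 to −0.66 over all alternatives, and here too it passed the minimum through DOX/IgG1. In this comparison 0 members and 0 of 13946 genes (0%) were called, and 2 members had an unadjusted p below 0.05, or 5.56% against 4.70% of all genes. Timp3 and Timp2 were also the 2 members without overlap, or 5.56% against 10.2% of all genes. The median was −0.25 beside −0.04 for all genes, and −0.40 to −0.10 on leaving out single tumors. Without DOX/IgG1 replicate 1, 0 members were called and 5 instead of 2 had an unadjusted p below 0.05, or 13.9% beside 7.54% of all genes in that fit. Timp3 was then at −1.40 (SE 0.26, limma adjusted p = 0.217, range over all alternatives 0.217 to 1). Adamtsl1 went from −0.69 (SE 0.92, limma adjusted p = 0.99) to −1.96 (SE 0.35, limma adjusted p = 0.197), and Timp1 from 0.99 (SE 0.66, limma adjusted p = 0.988) to 1.70 (SE 0.52, limma adjusted p = 0.513). DOX/IgG1 is also the group compared with IgG1, and its high Timp3 values enter both results. The salivary gene Amy1 had a log2 fold change of −0.87 with anti-PD-1 (limma adjusted p = 0.988), while Bpifa2 and Smr3a were at 0 in each tumor of DOX/anti-PD-1 and entered the fit only through DOX/IgG1, and their part in the Timp3 difference was not tested.

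Whether the difference with doxorubicin depended on the antibody was tested by the interaction in 12 tumors. Timp2 and Mmp14 were the 2 of 39 members at an unadjusted p below 0.05, or 5.13% against 4.71% of all genes. By the calling rule 0 members passed, beside 1 of 14735 genes (0.00679%). The difference with doxorubicin was lower under anti-PD-1 for Timp2, by −0.88 on the log2 scale (SE 0.38), and higher for Mmp14, by 1.17 (SE 0.52), both with a limma adjusted p of 0.993. For Timp3 it was −0.81 (SE 0.41, limma adjusted p = 0.993). Which members fell below that level depended on single tumors, and their number ranged from 0, without anti-PD-1 replicate 3 or without DOX/anti-PD-1 replicate 3, to 6. Without DOX/IgG1 replicate 1, Timp2 was at −0.76 (SE 0.40, limma adjusted p = 0.801) and Mmp14 at 1.22 (SE 0.56, limma adjusted p = 0.767), about as large as before, but neither had an unadjusted p below 0.05, and 6 other members did, or 15.4% beside 6.45% of all genes in that fit. These were Timp1, at 2.51 (SE 0.84, limma adjusted p = 0.69), Adamtsl1, at −1.88 (SE 0.70, limma adjusted p = 0.703), Mmp16, Mmp13, Adamts6 and Mmp23. Of these, Mmp16 reached 1 TPM only in 3 doxorubicin tumors, 2 of them DOX/IgG1, so it passed the minimum only where it was high. A difference between the antibodies was not shown for any member.

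Related genes were described from 3 further lists, beside 8.82% of all genes higher and 3.16% lower at an unadjusted p below 0.05 in the doxorubicin main effect. Among 18 activators and other inhibitors, 16 were tested in it, 3 of them higher and 3 lower at an unadjusted p below 0.05 and 0 called, with a median of 0.24. Plau, the urokinase gene whose product starts the plasmin cascade that activates several metalloproteases, was at 13.0, 10.3 and 13.7 TPM under IgG1, 8.29, 11.4 and 9.09 TPM under anti-PD-1, 15.3, 33.3 and 30.4 TPM under DOX/IgG1 and 22.9, 27.2 and 43.1 TPM under DOX/anti-PD-1. All 6 doxorubicin tumors lay above the other 6, with a log2 fold change of 1.27 (SE 0.25, limma adjusted p = 0.118, exact p = 0.005). Lrp1, the endocytic receptor that clears metalloproteases and TIMPs, had one of 0.94 (SE 0.26, limma adjusted p = 0.206, exact p = 0.01). Among 20 matrix and secreted substrates other than collagens, 19 were tested, 7 higher and 2 lower at that level and 0 called, with a median of 0.37. Among the 7, Acan reached 1 TPM only in doxorubicin tumors and so had to differ. Nid1, a basement membrane linker, had a log2 fold change of 0.87 (SE 0.23, limma adjusted p = 0.206, exact p = 0.01). Dcn, the decorin gene, had one of 1.20 (SE 0.36, limma adjusted p = 0.235, exact p = 0.015), and it stood at 76.8 TPM in DOX/IgG1 replicate 1 against 619 and 323 TPM in replicates 2 and 3. Of 11 ADAM relatives, membrane-bound enzymes that shed surface proteins, 1 was higher and 0 lower at that level and 0 were called, with a median of 0.12, equal to that of all genes. Adam33 had a log2 fold change of 0.85 (SE 0.36, limma adjusted p = 0.367) and Adam28 one of 0.65 (SE 0.32, limma adjusted p = 0.439). Adam28 reached 1 TPM only in 3 doxorubicin tumors, at 1.57 TPM at most, so it passed the minimum only where it was high and had to differ.

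The marker lists also checked the tissue. Luminal epithelial genes, most abundantly Epcam, were abundant in all 12 tumors, with sums of 2050 to 3830 TPM, and their median in the doxorubicin main effect was −0.18, with 1 gene higher and 2 lower at an unadjusted p below 0.05. Basal epithelial genes, most abundantly Krt14, summed to 38.4 to 145 TPM (median 0.24), endothelial genes, most abundantly Pecam1, to 78.6 to 179 TPM (median 0.08) and skeletal muscle genes, most abundantly Acta1, to 0 to 703 TPM (median −0.06). None of these 3 lists had a gene at that level. In the same fit the median was 0.41 for the fibroblast list with 1 gene higher, 0.46 for the pericyte list with 0, 0.15 for the macrophage list with 0, 0.03 for the neutrophil list with 0 of 4, 1.00 for the adipocyte list with 2 higher, and the salivary list had 3 of 4 genes higher, 2 of them (Bpifa2 and Smr3a) through DOX/IgG1 tumors alone or nearly alone.

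**Figure D5:**
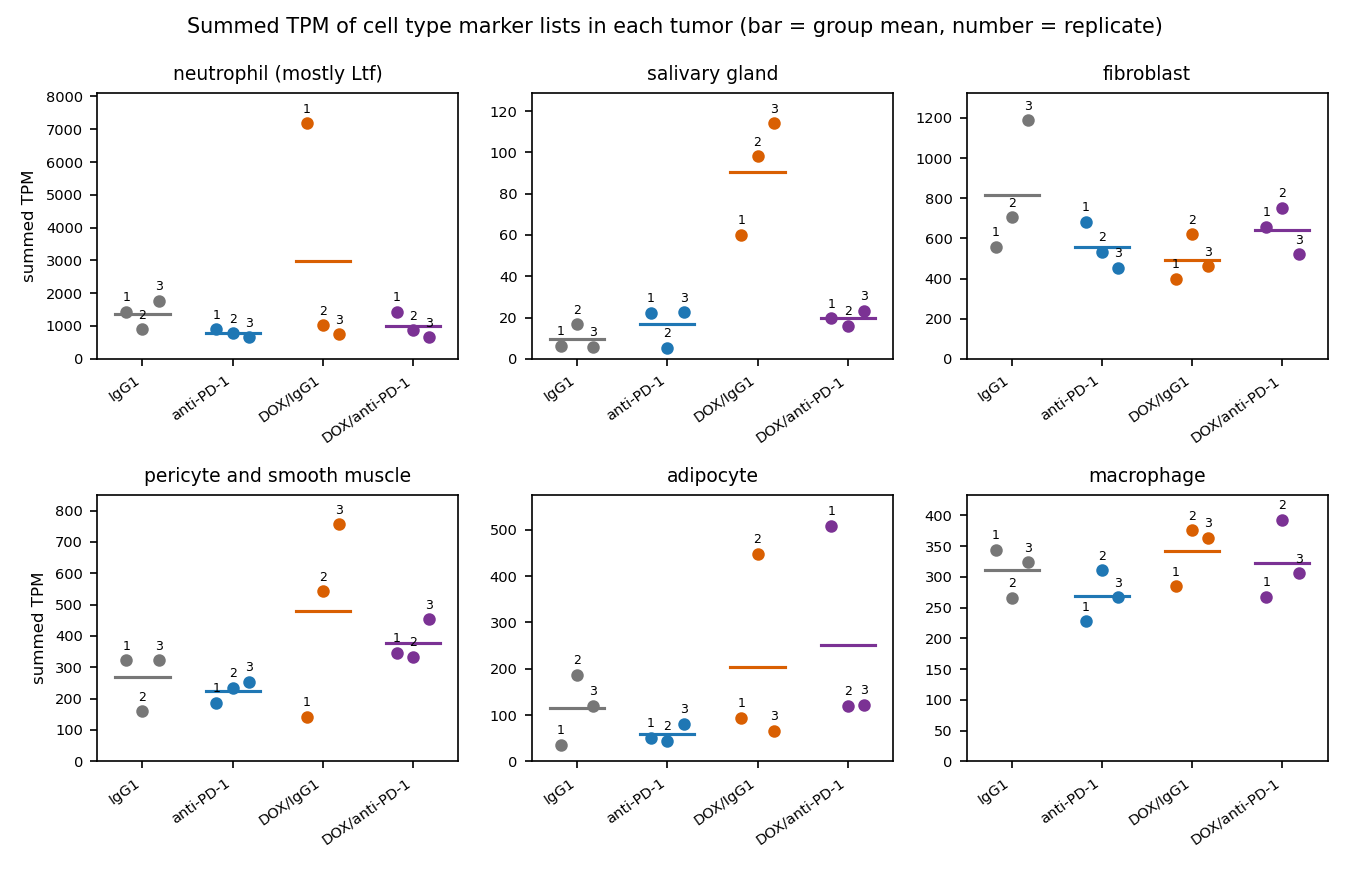
Summed TPM of 6 marker lists (vertical axes, linear, each with its own scale) in the 3 tumors of each group (horizontal axis), with the group mean as a bar and the replicate number above each point. The neutrophil sum of 7191 TPM in DOX/IgG1 replicate 1 is nearly all Ltf, and the salivary gland sums of 60.1, 98.0 and 114 TPM set the DOX/IgG1 group apart.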

How the data were processed

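RNA of 12 tumors was analysed, 3 per group by the labels. By the authors' notes the reads were trimmed (skewer) and aligned by STAR (genome mm10), and RSEM gave the gene levels, deposited by the authors as log2(TPM + 1) and reversed to TPM here. Read counts were not used here, and depth is unknown. The members and gene lists were chosen with earlier results of these data known. Genes with at least 1 TPM in at least 3 tumors of a comparison were tested. Fits that left out a tumor kept the genes chosen with all tumors of the comparison. The test was limma 3.58.1 (R 4.3.3, two-sided, lmFit, then eBayes allowing for the trend of variance with level). It was run on log2(TPM + 1), with Benjamini-Hochberg adjustment over all genes tested. A fold change on this scale understates low genes. Pairs of groups were fitted on 6 tumors, and the doxorubicin main effect (antibody as covariate) and the interaction on 12. Exact permutation tests, two-sided, used 20 label placements for 2 groups and 400 within antibody for the main effect, and are not adjusted. Named with all values were the TIMPs, the 3 Mmp, 3 Adamts and 2 Adamtsl genes of highest mean, any called member and the 3 smallest p-values of each comparison other than the interaction. The fits without DOX/IgG1 replicate 1 were singled out, and genes without overlap named, after values were seen. For each list of related genes the 2 smallest p-values in the main effect were named. Alternatives were another pseudocount (0.1), no filter or 5 TPM, median-of-ratios scaling, 1 fit of all 12 tumors, a replicate block, no trend, no fold limit, leaving out each tumor and, added later, 1 TPM in 3 tumors on each side. The fits were tested on data with known differences put in. The first limits of this check, on genes recovered and on error, were not met, and after that result they were replaced by limits on sign, scaled error and wrong calls, which were met. Of 200 genes changed by a log2 of 1.5, a fit of 2 groups called 38 to 73, so most differences of that size would not be called. The labels pair no tumors.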

Additional observations from a re-analysis of the deposited data

Results flagged for a closer look

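Timp2 and Mmp14 were listed because their limma interaction test of doxorubicin and antibody had an unadjusted p below 0.05, as in 2 of 39 members (5.13%) beside 4.71% of all genes. For Timp2, the difference under anti-PD-1 minus that under IgG1 was −0.88 on the log2 scale, with an adjusted p of 0.993 in limma. For Mmp14 it was 1.17, with the same adjusted p of 0.993 in limma. Without DOX/IgG1 replicate 1 the values were −0.76 and 1.22, with adjusted p of 0.801 and 0.767 in limma, and neither then had an unadjusted p below 0.05, while 6 other members did, or 15.4% beside 6.45% of all genes in that fit.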

How the results depend on the processing

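With all 12 tumors, 0 members were called in each of the 6 comparisons under every alternative run, and leaving out tumors gave 0 to 1 for DOX/IgG1 against IgG1 and 0 to 1 for the doxorubicin main effect, in both cases Adamtsl1 without DOX/IgG1 replicate 1, at 2.84 and 1.80. Counts at an unadjusted p below 0.05 moved more. These counts, the count over genes at 1 TPM or more in 3 tumors on each side, and Adamtsl1 in DOX/IgG1 against IgG1, were added as results after seeing the data. Leaving out single tumors gave 2 to 5 members for DOX/IgG1 against IgG1, 4 to 8 for DOX/anti-PD-1 against anti-PD-1, 1 to 5 for anti-PD-1 against IgG1, 2 to 5 for DOX/anti-PD-1 against DOX/IgG1, 7 to 13 for the main effect and 0 to 6 for the interaction. Median-of-ratios scaling gave 3 members for DOX/IgG1 against IgG1, and the 5 TPM filter gave 1 for anti-PD-1 against IgG1. The 13 in the main effect came without DOX/IgG1 replicate 1, or 33.3% beside 14.7% of all genes in that fit. They include Mmp9 and Mmp28, which without doxorubicin reached 1 TPM only in IgG1 replicate 1 and IgG1 replicate 3. These genes thus met the minimum through doxorubicin tumors, where they were higher. The count over genes at 1 TPM or more on each side is not given for that fit. Counts printed without the share of all genes in the same fit cannot be set against that share. The members' medians ranged, on leaving out tumors, from 0.20 to 0.46, from 0.38 to 0.53, from −0.36 to −0.11 and from −0.40 to −0.10 in the 4 comparisons in that order, and from 0.22 to 0.38 in the main effect. Without a filter on low values the median for DOX/anti-PD-1 against anti-PD-1 was 0.21. The cause was not tested. Alternatives were kept for 29 gene results, and 2 of these turned, both in the main effect with values near 0. Of members without kept alternatives, Mmp13 (−0.08 to 0.05), Mmp11 (−0.01 to 0.07), Mmp24 (−0.02 to 0.16) and Mmp25 (−0.00 to 0.18) also turned in the main effect without DOX/IgG1 replicate 1. Larger turns without that tumor were seen in other comparisons, such as Adamts18 (0.29 to −0.33) and Mmp23 (0.01 to −0.61) for DOX/IgG1 against IgG1, and Adamts18 (−0.05 to 0.57), Adamtsl2 (0.30 to −0.07) and Adamtsl4 (0.09 to −0.19) for DOX/anti-PD-1 against DOX/IgG1. Mmp15, at 0.04, was −0.07 with median-of-ratios scaling and −0.08 to 0.14 over all alternatives, −0.03, −0.08 and −0.02 without anti-PD-1 replicate 1, DOX/anti-PD-1 replicate 1 and DOX/anti-PD-1 replicate 2. Timp1, at −0.01, ranged from −0.22 to 0.43 over all alternatives and was 0.37, 0.06, 0.08 and 0.43 without IgG1 replicates 1 and 3 and DOX/IgG1 replicates 2 and 3. With the replicate number as a block, 0 members were called in each comparison. The main effect then gave 10 members at an unadjusted p below 0.05, but the share of all genes in that fit is not given here. The labels do not say that tumors of 1 number belong together. Deviations from the group mean correlated from −0.096 to 0.134 between tumors of 1 number and from −0.190 to 0.113 between others. Such values cannot exclude a shared mouse or batch. The depth of the tumors is unknown, so the error of low genes cannot be given.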
